A study of Mus musculus with 2 samples.

Results

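The major urinary protein (Mup) family was examined in freshly isolated mouse liver cells. Its members were all gene symbols made of Mup and a number or of Mup-ps and a number, which gave 51 of the 43280 symbols counted. Of these, 21 are coding genes and 30 are pseudogenes. The study compared small hepatocytes (SHs), which the labels describe as intrinsic hepatocyte progenitors, with mature hepatocytes (MHs), and used 1 RNA-seq library of each. Both came from livers of C57BL6 mice with a labelled age of 20 weeks (the methods give a younger range for the study's mice), without genetic modification or treatment named in the labels. The labels state that both cell types were taken from the same animals. The methods state that several mice were used, so each library may be a pool. The reporting summary of the paper says that male and female mice were used in the study, and the labels do not give the sex of these mice. Both were collected at different centrifugal forces and freed of dead cells with Percoll. MHs were then used with no sort, whereas flow cytometry was used to purify SHs as ICAM-1+ cells that were CD31-, CD45- and EpCAM-.

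MUPs are small secreted proteins of the lipocalin fold, a barrel that holds a small hydrophobic molecule. Hepatocytes release them into the blood, the kidney filters them into the urine, and there they bind volatile pheromones and release them slowly. Most coding genes lie side by side in a cluster on chromosome 4 and arose by repeated duplication, with pseudogenes between them. In the liver they are expressed at very high levels, more in males than in females, and depend on the pulses of growth hormone that act through its receptor and the transcription factor STAT5.

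In this comparison the family took 6.86% of all counted reads in MHs and 3.94% in SHs. The lower share in SHs came from 15 coding members of nearly the same sequence and from the pseudogene Mup-ps22. Mup3 and Mup20, the other abundant coding members, were slightly higher in SHs. The MH library held 16979136 counted reads and the SH library 42356444, with reads on 44 and 43 members. Levels are given as reads per 1000000 counted reads (RPM) and the ratio of SHs over MHs as log2, with 0.5 reads added to both counts. The range after a ratio is its 95% Clopper-Pearson interval and reflects counting error alone. A single library of each kind allows no test, so "lower" and "higher" below describe these 2 libraries. In such bulk libraries, fewer cells that express a gene and less of its RNA per cell cannot be told apart.

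The cell type markers were checked first. The 6 hepatocyte markers summed to 74224 RPM in MHs and 78669 in SHs, and each was detected in both, Alb among them at 55706 and 60855 RPM. The 5 endothelial markers summed to 47.6 and 3.57 RPM, with Lyve1 at 0 in SHs. The 4 macrophage markers found among the symbols summed to 10.5 and 0.260 RPM, and the 5 stellate cell markers to 18.1 and 1.75. All 14 markers of these 3 cell types were lower in SHs. The 5 cholangiocyte markers summed to 13.9 and 14.1 RPM. Krt19 and Krt7 had 1 read each in both libraries, and Epcam had 6 in MHs and 1 in SHs. Nearly all other reads were on Spp1 and Sox9, which differed in direction. Spp1 had 136 and 271 reads and a log2 ratio of -0.33 (-0.63 to -0.02). Sox9 had 92 and 325 reads and a log2 ratio of 0.50 (0.16 to 0.85). The part of the other cells in the Mup values was not tested.

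The coding members fall into sequence groups. Of the coding sequences in the GENCODE M21 annotation of mm10, those of Mup1, Mup2, Mup7 to Mup19 and Mup22 formed 1 group, in which each of the 120 pairs was 98.2% to 99.8% identical. Mup22 is not among the counted symbols, so this group has 15 counted members, called near-identical here. Mup3, Mup4, Mup5, Mup6, Mup20 and Mup21 were 82.4% to 91.4% identical to the group. This grouping was made after the values had been seen. The near-identical members lie between positions 60066469 and 61782269 of chromosome 4, all on the minus strand. Mup4 and Mup6 lie before this stretch, and Mup5, Mup20, Mup3 and Mup21 after it. Of the 30 pseudogenes, 19 lie inside the stretch, all on the plus strand, and 7 lie after it on the same chromosome. Mup-ps22 is a processed pseudogene, a copy of an mRNA without introns, and lies alone on chr11:55123695-55123937 (plus strand). Mup-ps25, Mup-ps27 and Mup-ps30 were not found in this annotation.

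The letters of Mup-ps22 are shown because it held more reads than any other member. Its 243 bases align without a gap to the end of the coding sequence of each coding member, across 3 exon junctions. Below it stand the same stretches of Mup1 (gene at chr4:60498012-60501960), a near-identical member, of Mup20 (chr4:62050234-62054158) and of Mup3 (chr4:62083476-62087342), each on the minus strand, from the GENCODE M21 transcripts. Capitals mark the bases that differ from Mup-ps22, 33 in Mup1, 24 in Mup20 and 27 in Mup3.
Mup-ps22: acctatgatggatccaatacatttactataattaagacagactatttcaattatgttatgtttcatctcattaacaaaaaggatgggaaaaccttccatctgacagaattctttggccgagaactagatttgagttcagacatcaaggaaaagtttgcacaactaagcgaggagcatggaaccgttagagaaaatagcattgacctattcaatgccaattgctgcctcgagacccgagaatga
Mup1: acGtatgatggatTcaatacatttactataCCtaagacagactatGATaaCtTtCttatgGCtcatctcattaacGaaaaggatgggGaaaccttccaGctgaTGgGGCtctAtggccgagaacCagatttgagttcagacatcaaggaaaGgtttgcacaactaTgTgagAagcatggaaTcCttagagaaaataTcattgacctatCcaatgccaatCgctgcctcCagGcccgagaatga
Mup20: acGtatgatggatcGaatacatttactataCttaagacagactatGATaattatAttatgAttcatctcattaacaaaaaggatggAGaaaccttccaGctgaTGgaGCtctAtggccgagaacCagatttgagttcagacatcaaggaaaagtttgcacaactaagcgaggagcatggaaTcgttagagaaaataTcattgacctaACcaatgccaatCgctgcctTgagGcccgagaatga
Mup3: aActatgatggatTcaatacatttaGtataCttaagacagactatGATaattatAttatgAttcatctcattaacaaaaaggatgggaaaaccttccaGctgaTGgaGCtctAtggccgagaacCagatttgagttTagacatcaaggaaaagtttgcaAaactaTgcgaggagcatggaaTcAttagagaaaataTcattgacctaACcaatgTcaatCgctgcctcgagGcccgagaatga

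Over the coding members, Mup-ps22 differed from these stretches at 24 bases in Mup20, the nearest, to 46 in Mup6. Near-identical members differed from it at 32 or 33 bases. No 100-base window of Mup-ps22 was found in another Mup transcript with at most 2 mismatches, the limit that the methods give for alignment. With windows of 50 bases, 53.6% were found in no other, 44.8% in 1 to 9 others and 1.55% in 10 or more. With 100 bases and at most 20 mismatches, all of its windows were found in 10 or more other Mup transcripts.

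The near-identical members have little sequence of their own. In each of them, 79.8% to 98.2% of the 100-base windows were found in 10 or more other Mup transcripts with at most 2 mismatches. In 11 of the 15, every window was found in at least 1 other. In contrast, 59.3% (Mup20) to 97.7% (Mup6) of the windows of the 6 other coding members were found in no other Mup transcript. Their own share depended on the window. It was 68.7% to 100% with 150 bases, 26.8% to 46.6% with 50 bases, and 0% to 22.5% with 100 bases and at most 20 mismatches, which is what the similarity fraction in the methods would allow. The near-identical members had at most 8.75% of their windows to themselves under each of these settings, which were chosen after the data were seen. The length of the reads is not given in the sources used here. The methods set a maximum of 10 hits per read for the alignment, and the sources used here do not say how the deposited counts treated reads with several hits. The values of single near-identical members and of most pseudogenes are therefore uncertain, and those of the 6 other coding members could also hold shared reads.

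**Figure D1:**
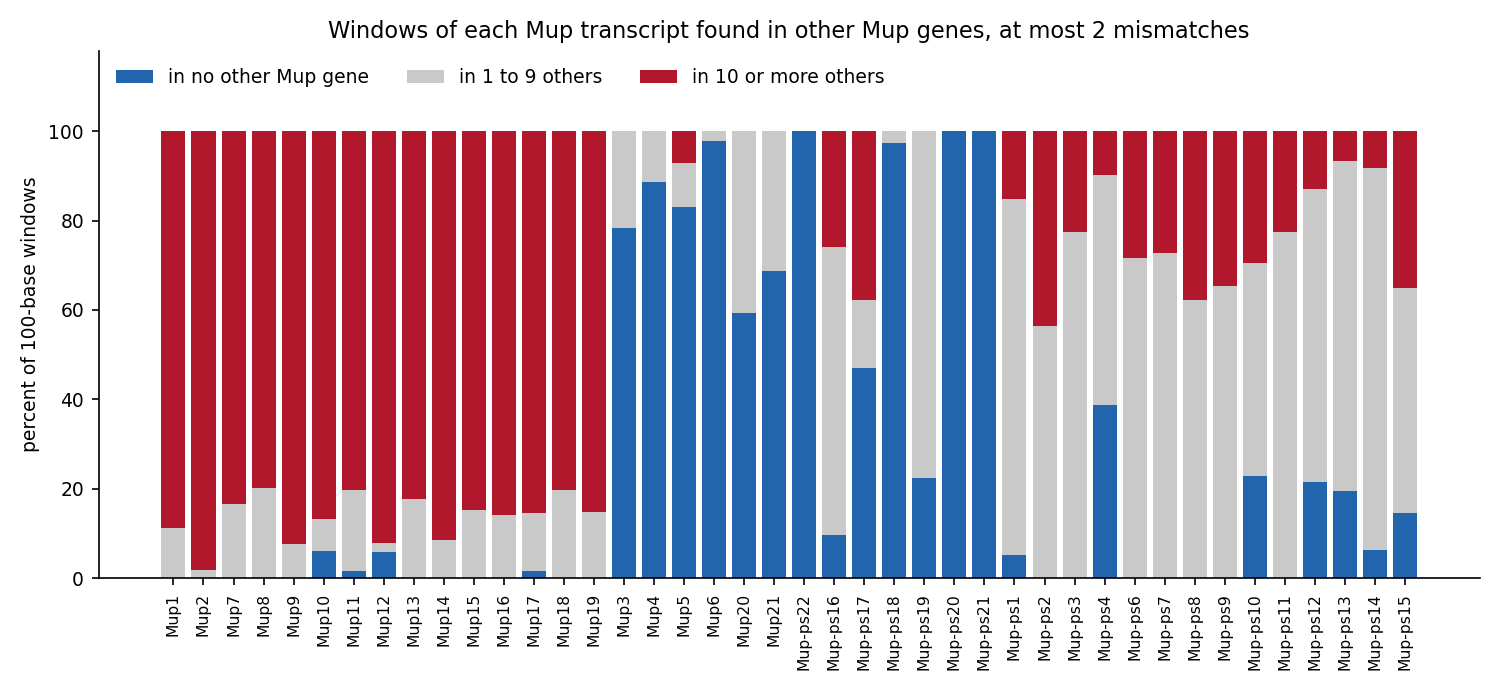
Percent of the 100-base windows of each Mup transcript (vertical axis) that were found in no other Mup gene, in 1 to 9 others or in 10 or more others, with at most 2 mismatches, for members with at least 10 reads and at least 1 such window (horizontal axis). The near-identical coding members at the left are almost wholly shared, whereas Mup-ps22 shares none of its windows.

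The promoters that could be examined also differed between the sequence groups. The RefSeq promoter table (GRCm38.p6, 250 bases before to 50 after each start) held 14 of the 21 coding members. Mup20 and Mup5 were not among them. The letters GACCCATA were found in all 14 and TATATAA, a common core promoter element, in 13. Both motifs were searched on the strand of transcription. On that strand, 0.240% of all 32851 promoters of the table held GACCCATA and 2.20% held TATATAA. Between these motifs lay 59 to 71 bases in 9 near-identical members, of which 58.0% to 68.9% were A. In Mup3, Mup4, Mup6 and Mup21, 31 to 37 bases lay between them, of which 45.2% to 59.5% were A. The stretches of 2 near-identical members and of these 4 are shown with both motifs in capitals, in the direction of transcription. In the 13 promoters with both motifs, the number of bases between them separates the groups. Mup7 held no TATATAA, and only 10 near-identical members had a promoter in the table. TATATAA began 11 (Mup3), 8 (Mup21) and 2 (Mup11) bases before the annotated start, and after it in Mup14. In the others it began 25 to 31 bases before the start.
Mup2: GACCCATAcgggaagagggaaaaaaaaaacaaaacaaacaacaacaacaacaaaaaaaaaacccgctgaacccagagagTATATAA
Mup9: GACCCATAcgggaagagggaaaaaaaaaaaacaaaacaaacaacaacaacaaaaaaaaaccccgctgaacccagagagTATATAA
Mup3: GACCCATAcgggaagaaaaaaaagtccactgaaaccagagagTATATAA
Mup4: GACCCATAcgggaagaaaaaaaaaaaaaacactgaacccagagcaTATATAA
Mup6: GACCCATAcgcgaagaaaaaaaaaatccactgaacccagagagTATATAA
Mup21: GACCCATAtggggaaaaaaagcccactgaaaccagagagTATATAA
They lie at chr4:60139877-60139962 (Mup2), chr4:60421977-60422061 (Mup9), chr4:62087322-62087370 (Mup3), chr4:59960690-59960741 (Mup4), chr4:60003409-60003458 (Mup6) and chr4:62150843-62150888 (Mup21), on the plus strand for Mup6 and on the minus strand for the others. The letters TTCNNNGAA, to which STAT factors can bind, were in none of the 14 windows and in 8.30% of all promoters.

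Summed over all 51 members, the family had 1163990 reads in MHs and 1668813 in SHs, which is 68554 and 39399 RPM. The log2 ratio was -0.799 (-0.802 to -0.796), or 1.74-fold lower in SHs. The 21 coding members summed to 48467 RPM in MHs and 29759 in SHs, for a log2 ratio of -0.70. The 30 pseudogenes summed to 20087 and 9640 RPM, a log2 ratio of -1.06. Pseudogenes thus held 29.3% of the family's reads in MHs (95% Clopper-Pearson interval 29.2% to 29.4%) and 24.5% in SHs (24.4% to 24.5%). Nearly all of these were reads of Mup-ps22: without it, the other 29 pseudogenes summed to 804 and 680 RPM, with a log2 ratio of -0.24 (-0.27 to -0.21).

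The near-identical coding members summed to 38639 RPM in MHs and 19307 in SHs, for a log2 ratio of -1.001 (-1.006 to -0.996), or 2.00-fold lower in SHs. Mup-ps22 had 19283 and 8960 RPM, a log2 ratio of -1.11. The 6 other coding members summed to 9828 and 10452 RPM, a log2 ratio of 0.09 (0.08 to 0.10). Of the difference of 29155 RPM in the family's sum, the near-identical members made up 66.3% and Mup-ps22 35.4%, and the higher sum of the 6 other coding members offset 2.14%. The other 29 pseudogenes made up 0.426%. The 6 other coding members held 14.3% of the family's reads in MHs and 26.5% in SHs.

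**Figure D2:**
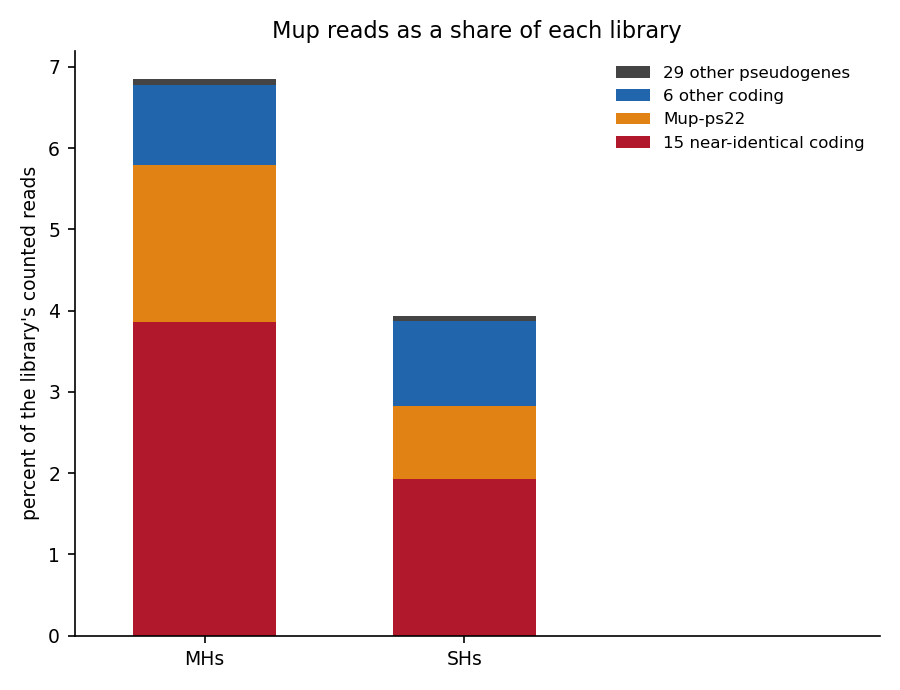
Stacked bars of Mup reads as a percent of all counted reads of the library (vertical axis) in MHs and SHs, 1 library each, by sequence group. The bar is 6.86% tall in MHs and 3.94% in SHs, and the parts that shrink are the near-identical coding members and Mup-ps22.

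Of the 51 members, 43 had at least 10 reads over both libraries. Mup-ps23 had 1 read in MHs and 0 in SHs, and Mup-ps24 to Mup-ps30 were at 0 in both, which allows up to 0.177 RPM in MHs and 0.0708 in SHs (3 reads). Of the 43, 38 had a ratio under 0, against 48.0% of the 15521 genes of the series with as many reads. The interval lay under 0 for 31 members (72.1%), against 15.5% of those genes, and above 0 for 4 members, against 16.8%. At least 2-fold lower with the interval under 0 were 17 members (39.5%), against 4.46% of those genes, and 0 members were as much higher, against 2.00%. The median log2 ratio was -0.89 over the 43 members and 0.02 over all 15521 genes. Since members share sequence, their counts are not independent of each other.

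The 26 members with at least 1000 reads were set beside the 5055 genes of that depth. Of these genes, 0.613% were at least 2-fold lower in SHs, which is 31 genes, and 9 of the 31 were Mup members. They were Mup-ps22, Mup2, Mup11, Mup13 and Mup15 to Mup19. The interval lay under 0 for 20 of the 26 members and for 21.1% of the 5055 genes. It lay above 0 for 4 of the 26 members (15.4%) and for 31.2% of the 5055 genes.

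**Figure D3:**
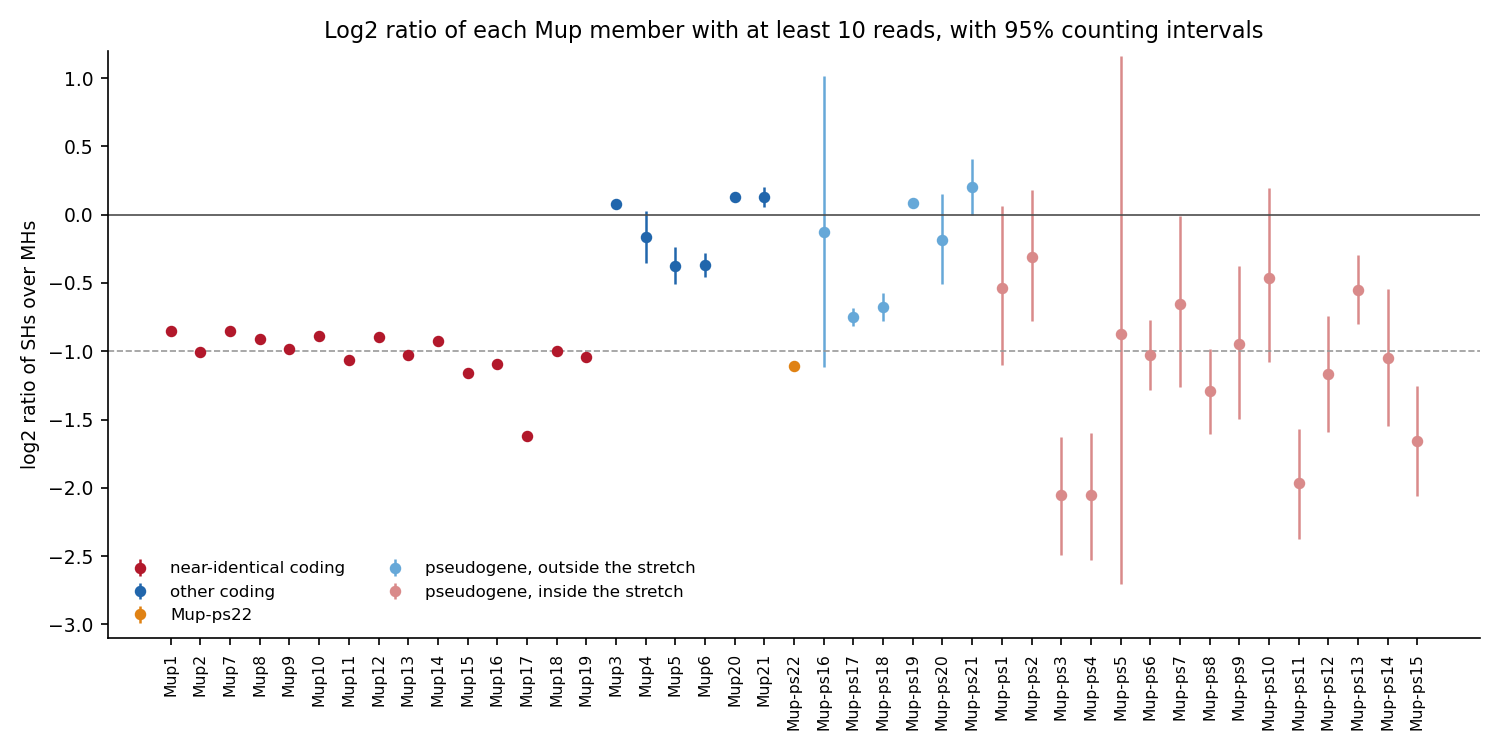
Log2 ratio of SHs over MHs (vertical axis) of each member with at least 10 reads (horizontal axis), coloured by sequence group and position, with bars for 95% counting intervals. The solid line marks 0 and the dashed line a 2-fold lower level. All near-identical coding members lie between -1.62 and -0.85, and the 6 other coding members between -0.37 and 0.13.

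Each of the 15 near-identical coding members was lower in SHs. Mup7 was the most abundant of them, at 4489 RPM in MHs and 2483 in SHs, with a log2 ratio of -0.85. Mup14 followed, with 3454 and 1823 RPM and a log2 ratio of -0.92. The levels of the 15 ran from 1697 (Mup9) to 4489 RPM in MHs and from 733 (Mup17) to 2483 RPM in SHs, as the reads were assigned in the deposited counts.

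Mup1, a long-known urinary protein gene of the liver, had 42982 reads in MHs and 59393 in SHs, or 2531 and 1402 RPM, and the same log2 ratio as Mup7, -0.85. Mup2 had 2382 and 1187 RPM and was 2.01-fold lower in SHs. Mup10, Mup12, Mup8 and Mup9 lay between them, with log2 ratios of -0.88, -0.89, -0.91 and -0.98. Mup17 stood apart from the group. It had 38201 reads in MHs and only 31032 in the deeper SH library, which is 2250 and 733 RPM and a log2 ratio of -1.62 (-1.64 to -1.60). The next lowest, Mup15, had 3079 and 1376 RPM and a log2 ratio of -1.16 (-1.18 to -1.15). The intervals do not cover the division of reads between paralogs. Of the windows of Mup17, 1.69% were found in no other Mup transcript.

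Among the 6 other coding members, Mup3 and Mup20 made up most of the reads. Mup3, the coding member with the most reads, had 120497 reads in MHs and 318082 in SHs, or 7097 and 7510 RPM. Its log2 ratio was 0.08 (0.07 to 0.09). Mup20 encodes darcin, the male urinary pheromone that attracts females. It had 41504 and 113389 reads, or 2444 and 2677 RPM, and a log2 ratio of 0.13 (0.11 to 0.15). Mup21 was far lower, with 129 RPM in MHs and 141 in SHs, and had a log2 ratio of 0.13 (0.06 to 0.20). These 3 neighbouring genes at the far end of the cluster were the coding members with an interval above 0. Such an interval was common at this depth, in 31.2% of all genes with at least 1000 reads.

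The remaining coding members were scarce. Mup6 had 1689 reads in MHs and 3265 in SHs, or 99.5 and 77.1 RPM, with a log2 ratio of -0.37 (-0.45 to -0.28). Mup5, known from salivary glands, had 39.3 and 30.3 RPM and a log2 ratio of -0.37 (-0.51 to -0.24). Mup4, known from glands of the nose and eye, had 334 and 743 reads, or 19.7 and 17.5 RPM, and its interval of -0.35 to 0.03 included 0. None of these 3 was 2-fold lower, and all lay nearer to 0 than any near-identical member.

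**Figure D4:**
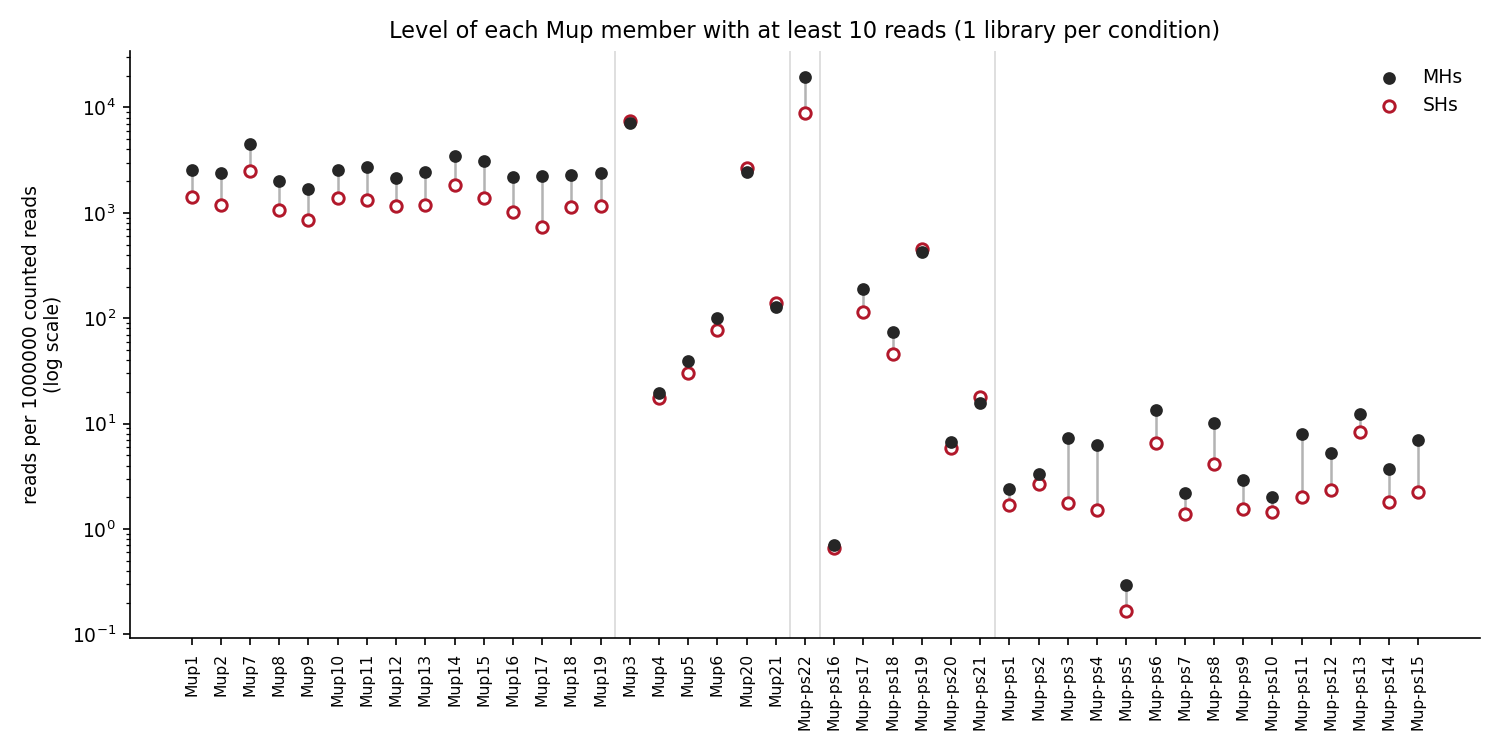
Level of each member with at least 10 reads in RPM (vertical axis, log scale), with filled points for MHs and open points for SHs, 1 library each. Members are ordered as near-identical coding, other coding, Mup-ps22, pseudogenes after the stretch and pseudogenes inside it, with grey lines between these groups. Near-identical members sit between 733 and 4489 RPM, whereas the pseudogenes inside the stretch are at 13.5 RPM or less.

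Levels of different genes were compared per length, as reads per 1000 exon bases and 1000000 counted reads (RPKM). In MHs the highest level was that of Mup-ps22 (79353 RPKM), followed by Mup3 (6645), Mup7 (4345), Mup15 (3329) and Mup20 (2634). In SHs the order was Mup-ps22 (36873), Mup3 (7032), Mup20 (2885), Mup7 (2404) and Mup15 (1487). Mup20 moved from the fifth to the third place, and Mup17 from place 9 to place 18. Since Mup-ps22 has only 243 exon bases, its value per length exceeds that of Mup3 by more than its reads do.

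Mup-ps22 had 327406 reads in MHs and 379515 in SHs, the most of any member in both. By reads it stood in place 4 of all genes in MHs and in place 9 in SHs, and its log2 ratio was -1.11 (-1.11 to -1.10). This ratio lay within the range of the near-identical coding members and outside that of the 6 others, although its sequence was nearest to Mup20. Whether its reads were transcribed from the locus on chromosome 11 was not tested.

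The pseudogenes on chromosome 4 were summed by position. The 19 inside the stretch of near-identical members summed to 1473 reads in MHs and 1683 in SHs, or 86.8 and 39.7 RPM, with a log2 ratio of -1.13 (-1.23 to -1.03). Of these, 15 had at least 10 reads, each with a ratio under 0, against 48.0% of all genes with as many reads. In 11 of them the interval lay under 0, against 15.5% of those genes. Mup-ps3, Mup-ps6 and Mup-ps11 had 0% of their 100-base windows to themselves, so these counts are not independent of each other. Mup-ps3 had 7.36 and 1.77 RPM, a log2 ratio of -2.05 (-2.49 to -1.63). Mup-ps4 (107 and 64 reads) and Mup-ps11 (135 and 86 reads) were close to it, at -2.06 and -1.97. The most read pseudogenes of this stretch were Mup-ps6, with 13.5 and 6.61 RPM, and Mup-ps13, with 12.3 and 8.36 RPM. Their log2 ratios were -1.03 and -0.55.

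The 7 pseudogenes after the stretch summed to 718 RPM in MHs and 641 in SHs, for a log2 ratio of -0.16 (-0.19 to -0.13). Most of this was Mup-ps19, with 7300 and 19328 reads, or 430 and 456 RPM, and a log2 ratio of 0.09 (0.05 to 0.12). Its nearest coding sequence was that of Mup20, at 95.1% identity, and their ratios, 0.09 and 0.13, lay close together. Mup-ps21, also nearest to Mup20, had 264 and 757 reads and a log2 ratio of 0.20, with an interval that reached 0. Mup-ps18 was nearest to Mup9, a near-identical member, at 93.4% identity. It had 73.9 and 46.3 RPM and a log2 ratio of -0.68 (-0.78 to -0.57). Mup-ps17 had 191 and 114 RPM and a log2 ratio of -0.75 (-0.81 to -0.68), and 37.8% of its windows were found in 10 or more other Mup transcripts. Its nearest coding sequence was that of Mup6, whose log2 ratio was -0.37. Apart from Mup-ps5, the pseudogenes inside the stretch with at least 10 reads were nearest to Mup6, Mup20 or Mup5. The log2 ratios of these coding members were -0.37, 0.13 and -0.37, whereas the pseudogenes inside the stretch summed to -1.13. Ratios thus did not always lie near that of the nearest coding sequence. Mup-ps16 and Mup-ps20 had 40 and 362 reads in all, and both intervals included 0. After Mup-ps19, Mup-ps17 and Mup-ps18 had the most reads of the 7. Their ratios lay within the range of the pseudogenes inside the stretch, -2.06 to -0.31. The higher ratio of the sum after the stretch thus depended largely on Mup-ps19.

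Genes of the growth hormone pathway and liver transcription factors were set beside the family. Of 19 such genes, 18 had at least 10 reads, and 0 were 2-fold lower or higher, against 4.46% and 2.00% of all genes. The interval lay under 0 for 4, against 15.5%, and above 0 for 7, against 16.8%, with a median log2 ratio of 0.02 as over all genes. Ghr, the growth hormone receptor, had 441 RPM in MHs and 424 in SHs, for a log2 ratio of -0.06. Stat5b, the main STAT5 form of male liver, had 82.7 and 89.1 RPM, a log2 ratio of 0.11 (0.02 to 0.20). The feedback inhibitors induced by growth hormone differed in direction. Socs2 had 7.36 and 4.44 RPM and a log2 ratio of -0.73 (-1.06 to -0.39), whereas Cish had 25.9 and 31.8 RPM and a log2 ratio of 0.30 (0.14 to 0.46). Igf1, the growth hormone target secreted by the liver, had 470 and 488 RPM, a log2 ratio of 0.05.

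Of the liver transcription factors, Cebpa had 507 RPM in MHs and 585 in SHs, for a log2 ratio of 0.21 (0.17 to 0.24). Cebpb had 104 and 83.5 RPM, a log2 ratio of -0.32 (-0.40 to -0.24). Hnf4a, a master regulator of hepatocyte genes, was at 633 and 649 RPM. The thyroid hormone receptor gene Thrb (42.9 and 46.8 RPM) had an interval that included 0, and so did Zhx2 (23.0 and 22.3 RPM), a repressor of several liver genes.

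Genes known for higher expression in male liver were examined next. Of 13, the interval lay under 0 for 9, against 15.5% of all genes, and above 0 for 2, against 16.8%, and the median log2 ratio was -0.37. Hsd3b5, a steroid-metabolizing enzyme, had 220 RPM in MHs and 141 in SHs, for a log2 ratio of -0.64 (-0.70 to -0.58). Elovl3, a fatty acid elongase, had 422 and 291 RPM, a log2 ratio of -0.54. Slco1a1, an organic anion transporter, had 299 and 204 RPM, a log2 ratio of -0.55. The cytochromes P450 Cyp7b1, Cyp4a12a and Cyp2d9 were at -0.43, -0.37 and -0.32. Susd4, a regulator of complement, was the single gene of this list that was at least 2-fold lower, with 15.3 and 5.62 RPM and a log2 ratio of -1.44 (-1.70 to -1.18). Gstp1, a glutathione transferase, was higher, with 698 and 896 RPM and a log2 ratio of 0.36. Apart from Susd4, the genes of this list lay nearer to 0 than every near-identical Mup member.

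Genes known for higher expression in female liver were scarce in both libraries, at 59.0 RPM in MHs and 42.3 in SHs for 16 genes together. Only 8 had at least 10 reads. Of these 8, the interval lay under 0 for 5, against 15.5% of all genes, and above 0 for 0, against 16.8%, and the median log2 ratio was -0.53. Cyp2a4 had 55 and 28 reads, a log2 ratio of -2.28 (-3.00 to -1.61), and Cyp2b9 had 33 and 22 reads, a log2 ratio of -1.89 (-2.75 to -1.08). Cyp3a41a, Cyp3a41b and Cyp3a44, which are close paralogs, were at -0.63, -0.43 and -0.38. Both sex-biased lists thus had medians under 0. Of the sex chromosome genes, 2 reads in MHs and 0 in SHs fell on Xist, and the Y-linked Ddx3y, Kdm5d, Uty and Eif2s3y had 33.1, 12.7, 12.96 and 21.9 RPM in MHs and 38.8, 11.6, 11.8 and 21.9 RPM in SHs. By these values the cells of both libraries came mainly or only from males.

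Other secreted proteins of hepatocytes differed less in size. Of 21 genes of plasma proteins, 0 were 2-fold lower or higher, against 4.46% and 2.00% of all genes. Their log2 ratios ran from -0.33 (Serpina3k) to 0.13 (Alb), with a median of -0.05. The interval lay under 0 for 15 of them (71.4%), against 15.5% of all genes, so by this count alone these deeply counted genes did not stand apart from the Mup family. Of 10 other lipocalin genes, 9 had at least 10 reads. The interval lay under 0 for 7, against 15.5% of all genes, and above 0 for 1, against 16.8%. As with the plasma proteins, 0 were 2-fold lower or higher, against 4.46% and 2.00%. Ambp, the precursor of alpha-1-microglobulin, had 2549 RPM in MHs and 2628 in SHs, for a log2 ratio of 0.04. Rbp4, the retinol carrier of plasma, had 1373 and 1328 RPM, a log2 ratio of -0.05. Orm2, an acute-phase protein, had 38.4 and 24.3 RPM and a log2 ratio of -0.66 (-0.80 to -0.52), and Lcn2 had 56 and 74 reads and a log2 ratio of -0.92 (-1.44 to -0.39). Lcn2 thus lay within the range of the near-identical Mup members, whose highest log2 ratio was -0.85, and the other 8 lay nearer to 0.

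**Figure D5:**
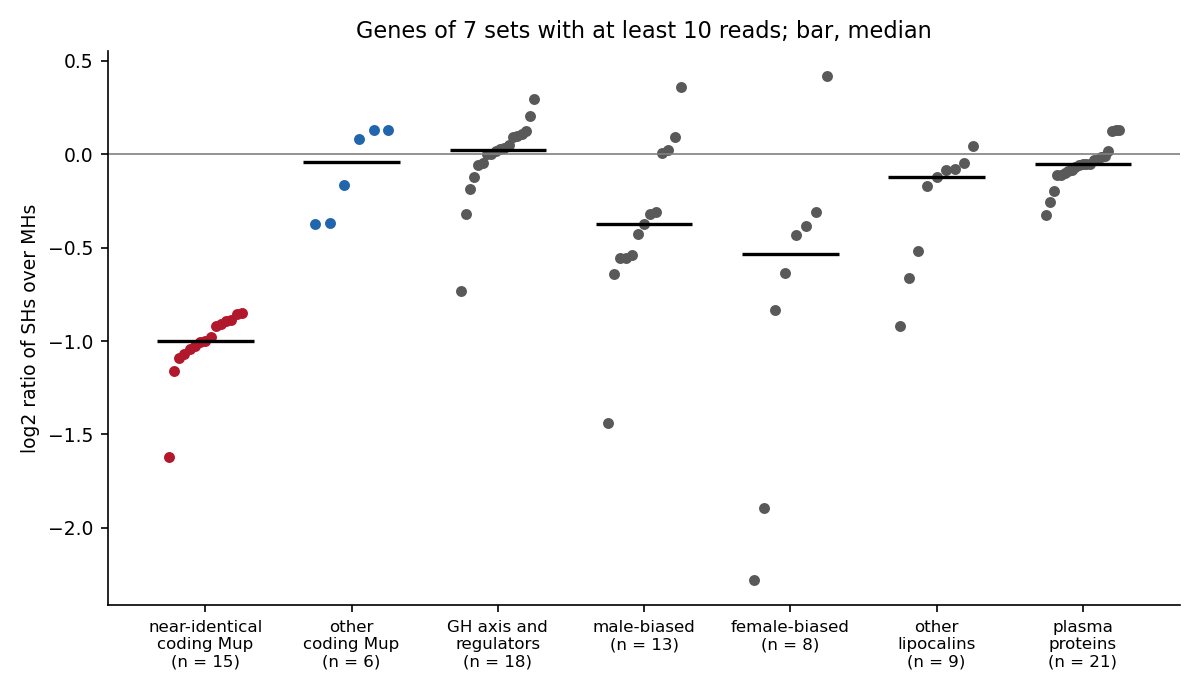
Log2 ratio of SHs over MHs (vertical axis) of single genes with at least 10 reads in 7 sets (horizontal axis, with the number of genes), sorted within each set, with a bar at the median. The near-identical coding Mup members all lie at -0.85 or lower, the medians of the 6 other coding members and of the plasma proteins are -0.04 and -0.05, and that of the male-biased list is -0.37.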

How the data were processed

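Poly(A) RNA of 1 sample of MHs and 1 of SHs was sequenced on an Ion Proton system. For each, the authors deposited whole read counts per gene symbol, not normalized. According to the methods, reads were trimmed and aligned to mm10 in CLC Genomics Workbench, with at most 2 mismatches and 10 hits per read, and RPKM values. The program and annotation behind the whole counts are not given in the sources used here. RPM, log2 ratios with 0.5 added reads and exact 95% Clopper-Pearson intervals were computed in Python 3.11.15 (numpy 2.4.6, pandas 2.3.3, scipy 1.17.1). No p-value was computed. A gene counted as 2-fold lower or higher if the ratio passed 2-fold and the interval lay on that side of 0, over genes with at least 10 reads. The reads carried no molecular identifiers. Depth was 16979136 reads in MHs and 42356444 in SHs.

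Coordinates, exon lengths and transcripts came from GENCODE M21, which is of the build of the files and held 48 of the 51 members. Coding sequences were linked at 95% identity, aligned with Biopython 1.88. The 33 members with at least 200 reads were to be named with values, and smaller ones where a count was small or extreme. The members, gene lists and alternatives were chosen with earlier results of these data known. The alternatives were scaling by edgeR 4.0.16 (TMM) or DESeq2 1.42.0 (size factors) in R 4.3.3, totals without the 10 most read genes or without the family, other read minimums, folds and added reads, and other biotypes. The calculation was tested on simulated counts. Some genes of the lists are not reported here by name.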

Additional observations from a re-analysis of the deposited data

How the results depend on the processing

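No paired analysis was possible because each condition had 1 library. No log2 ratio changed direction under any alternative tried, whereas the pseudogene share was higher in SHs than in MHs without Mup-ps22. Intervals are so narrow at this depth that small shifts pass them. By TMM, DESeq2 size factors, the total without the 10 most read genes and the total without the family, in this order, the log2 ratio of the summed family was -0.79, -0.79, -0.77 and -0.84, that of the coding members -0.69, -0.69, -0.67 and -0.75, that of the pseudogenes -1.05, -1.05, -1.03 and -1.10, that of the near-identical members -0.99, -0.99, -0.97 and -1.05, and that of the 6 other coding members 0.10, 0.10, 0.12 and 0.044. Without its member with the most reads, the ratio was -0.69 for the family and -0.24 for the pseudogenes (without Mup-ps22), -0.89 for the coding members and 0.11 for the 6 others (without Mup3), and -1.02 for the near-identical ones (without Mup7). These last splits, and those below by RefSeq biotype or without Mup-ps22, were in part chosen after the data were seen. Mup-ps22 thus decides the pseudogene sum. It also decides the share of pseudogenes, which without it was 1.63% in MHs and 2.24% in SHs, and which by RefSeq biotype was 28.98% and 24.1%. Without the 10 most read genes, Mup-ps22 among them, the family's share was 6.25% in MHs and 3.95% in SHs. At 1.5-fold 28 members were lower and at 4-fold 2, against 17 at 2-fold (39.5%, against 4.46% of all genes). The shares of all genes at 1.5-fold, at 4-fold and under the other scalings are not given here. The counts of members at those settings therefore have no background beside them. Across the 4 scalings, 13 to 18 members were at least 2-fold lower, all 15 near-identical members kept an interval under 0, and the median over all genes lay between -0.03 and 0.05. Of the 33 members with at least 200 reads, 0 reversed under any scaling or with 2 added reads. Depth limits the pseudogenes with few reads, and no value here has a replicate.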

Other observations

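The genes on both sides of the cluster were examined as well. It spans chr4:59956804-62150863, and of the 5 annotated genes nearest to each end, 6 had at least 10 reads. Slc31a1, a copper transporter, had 121 RPM in MHs and 108 in SHs, for a log2 ratio of -0.17 (-0.25 to -0.10). Fkbp15 had 31.5 and 28.4 RPM, a log2 ratio of -0.15, with an interval that ended at 0. The other 4, Snx30, Slc31a2, Inip and Gm12543, had intervals that included 0. All 6 ratios were under 0, from -0.53 to -0.15, against 48.0% of all genes with at least 10 reads. The interval lay under 0 for 2 of the 6, against 15.5% of those genes. None of the 6 was as low as any near-identical Mup member.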
